A study of Mus musculus with 24 samples.

Results

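The response of 67NR cells to TGF-beta was read from 8 of the 24 miRNA arrays of the study, those whose titles name this line. 67NR is a mouse mammary carcinoma line that the labels call nonmetastatic, one of a set of sister lines that also holds 4TO7 and 4T1. The cells had been kept for 6 days in organotypic (3D) culture, in a microenvironment that was either compliant or rigid. The 8 arrays form 4 groups of 2: compliant with TGF-beta, compliant with a compound that blocks the type I receptor for TGF-beta (the inhibitor), rigid with TGF-beta, and rigid with the inhibitor. The labels call the inhibitor groups basal, name no genetic change in any group, and give neither the dose of either agent nor what the compliant and rigid materials were. No 67NR array comes from cells without both agents, so every value below sets TGF-beta against a blocked receptor. A shift caused by the one and an opposite shift caused by the other cannot be told apart. The 2 arrays of a group are called set 1 and set 2 in the labels, which do not say whether the RNA came from separate cultures. The p-values therefore speak only of the spread between arrays of a group, which may be technical. That spread was estimated over all 24 arrays, those of 4TO7 and 4T1 included. 67NR is a single line, and in total RNA from whole cultures fewer cells of a kind and less miRNA per cell cannot be told apart.

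TGF-beta binds a pair of cell surface receptor kinases, of which the type I receptor phosphorylates Smad2 and Smad3, and the Smads then act on transcription and on the processing of some miRNA precursors. Mature miRNAs are short RNAs of about the length of the sequences printed below that hold back mRNAs matching their seed, the stretch of bases 2 to 8. In mammary carcinoma cells TGF-beta is best known for driving epithelial cells toward a mesenchymal state, a change in which miRNAs of the miR-200 family and the ZEB repressors hold each other down.

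Of 558 mouse miRNA probes, 313 to 325 were detected on each 67NR array (detection p under 0.05), and 220 were detected on no 67NR array. Across probes, the correlation of set 1 with set 2 within a group was r = 0.9975 to 0.9986, against r = 0.9901 to 0.9975 between arrays of different 67NR groups, which is a description over probes of shared arrays. Values are normalized log2 relative intensities, and a difference is TGF-beta minus inhibitor with its standard error (SE) in limma. Quantile normalization gives equal values to probes of equal rank, so identical values on several arrays mean the same rank. Levels of different probes are not compared, and with 2 arrays in each group their number sets the precision. Of the markers of an epithelial carcinoma, 4 of 10 were detected on any 67NR array: miR-141 and miR-203 on all 8, miR-182 on 7 and miR-200a on 1. MiR-200b, miR-200c, miR-429, miR-205, miR-183 and miR-96 were detected on none of the 8, while 6 of 7 probes for mesenchymal miRNAs, such as miR-143, miR-145 and miR-214, were detected on all 8.

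The sequences shown are those of the miRNAs with the 4 largest rises and the 8 largest falls, with miR-181c and miR-125a-5p added as relatives of the same seed, printed 5′ to 3′ from RefSeq (GRCm38.p6) with the seed in capitals. Of 43 names looked up, 40 had an entry. The miRNAs below fall into 4 groups that share a seed and 4 that stand alone. The miR-181 family rose except for its member miR-181c, and the rest, apart from miR-22, fell.
miR-181a: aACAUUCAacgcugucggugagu
miR-181b: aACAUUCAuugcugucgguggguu
miR-181c: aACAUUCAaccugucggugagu
miR-181d: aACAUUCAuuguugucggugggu
miR-22: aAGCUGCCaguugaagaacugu
miR-221: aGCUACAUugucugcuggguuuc
miR-222: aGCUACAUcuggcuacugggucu
miR-193: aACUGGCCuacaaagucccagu
miR-193b: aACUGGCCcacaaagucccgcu
miR-365: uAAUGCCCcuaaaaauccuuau
miR-210: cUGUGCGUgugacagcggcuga
miR-125a-5p: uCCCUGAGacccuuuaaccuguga
miR-125b-5p: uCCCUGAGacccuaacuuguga
miR-31: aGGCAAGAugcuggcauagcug

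MiR-181a and miR-181c are the closest of the family, with an edit distance of 1, while miR-181b and miR-181d differ from each other by 2. MiR-221 and miR-222 differ by 5 beyond their shared seed, miR-193 and miR-193b by 3, and miR-125a-5p and miR-125b-5p by 3. Probes for such close sequences can share signal, and how far they do was not tested here.

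With TGF-beta, 40 of the tested miRNAs changed in 67NR cells (11% of them called at an adjusted p under 0.05 in limma), 12 of them higher (3.29% of those tested) and 28 lower (7.67%). The largest rises were in miR-181b and miR-181a, and the largest falls in miR-221, miR-222, miR-193, miR-210 and miR-125b-5p. None of the 40 changed more than 2-fold. All 40 were detected on all 8 arrays and moved the same way in set 1 and in set 2. The sets are parts of the same arrays that made the call, so their agreement is no separate support. For 31 of the 40 the 4 TGF-beta arrays did not overlap the 4 inhibitor arrays, 9 of the rises and 22 of the falls. Over all tested miRNAs 15.3% did not overlap, 7.12% higher and 8.22% lower with TGF-beta. The split of 12 and 28 depended on how arrays were scaled to each other. It was 5 and 41 with median scaling over all miRNA probes, 16 and 22 with median scaling over the probes detected on every array, and 35 and 26 in the authors' value table. The median difference over all tested miRNAs was 0.01, -0.02, 0.06 and 0.06 on the log2 scale under quantile normalization and these 3 scalings.

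**Figure D1:**
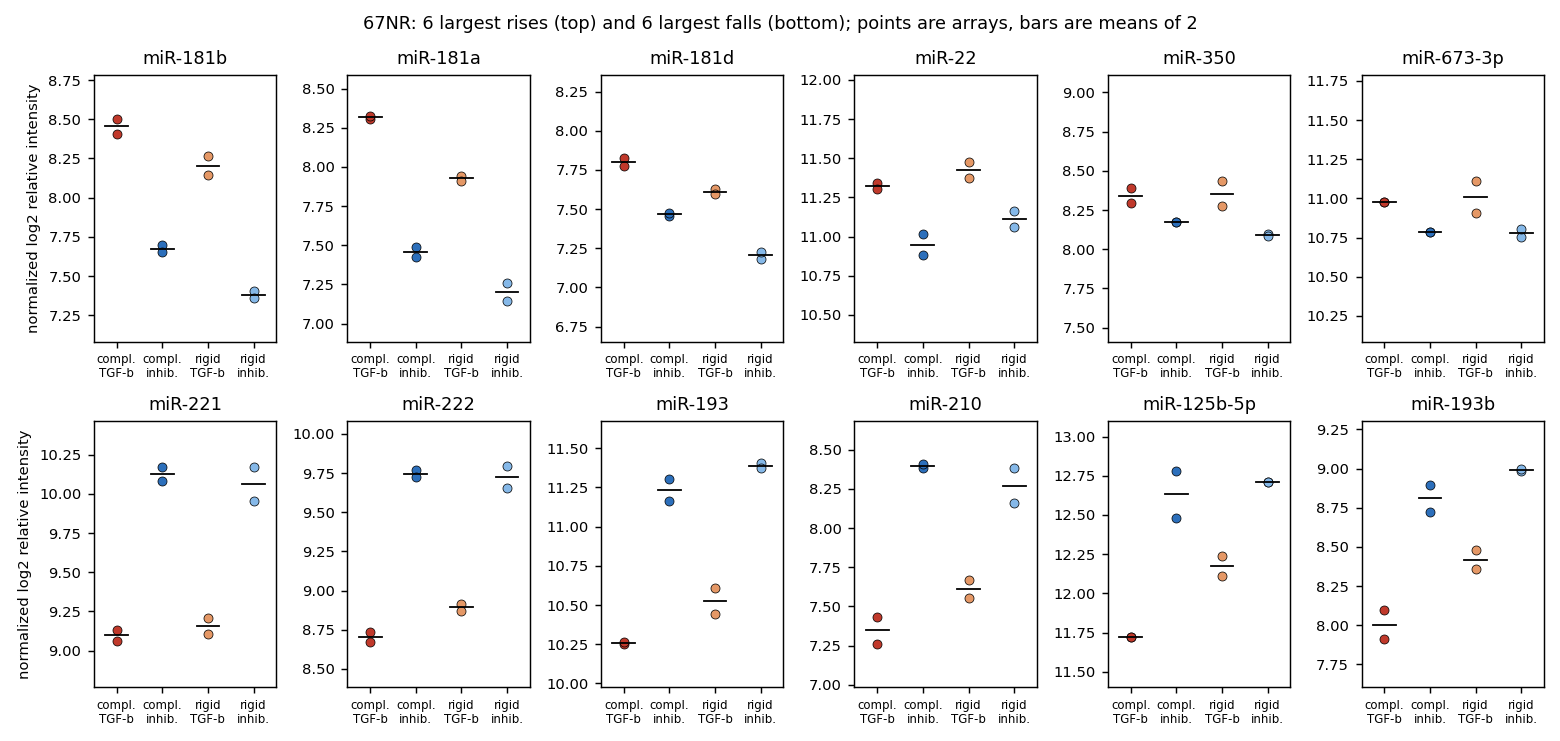
Each panel plots the normalized log2 relative intensity (vertical axis, every panel spanning the same range) of 1 miRNA on the 8 67NR arrays, as points for single arrays and bars for the mean of 2, by microenvironment and treatment. In each microenvironment both TGF-beta arrays lie above both inhibitor arrays for the 6 miRNAs of the top row and below them for the 6 of the bottom row.

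The miR-181 family, known for tuning receptor signalling in lymphocytes and reported as induced by TGF-beta in mammary cells, gave the largest rises. MiR-181b stood at 8.41 and 8.50 on the compliant TGF-beta arrays and 8.26 and 8.14 on the rigid ones, against 7.70 and 7.65 with the inhibitor in compliant and 7.40 and 7.36 in rigid culture. Its difference was 0.80 (SE 0.04), a 1.74-fold rise with a limma adjusted p of 4.2e-10. The lowest TGF-beta array lay above the highest inhibitor array. MiR-181a read 8.31 and 8.33 (compliant) and 7.94 and 7.91 (rigid) with TGF-beta, against 7.49 and 7.43 and then 7.26 and 7.14 with the inhibitor. It rose 1.73-fold, by 0.79 (SE 0.04). Under both treatments the rigid arrays of miR-181a and miR-181b read lower than the compliant ones, and the response was of like size in both (0.86 and 0.73 for miR-181a, 0.78 and 0.82 for miR-181b, compliant and rigid). MiR-181d measured 7.82, 7.78, 7.63 and 7.60 with TGF-beta, compliant before rigid, against 7.46, 7.48, 7.18 and 7.23 with the inhibitor, a rise of 0.37 (SE 0.04) with no overlap.

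MiR-181c, which carries the same seed, fell by 0.17 on the log2 scale (SE 0.04, limma adjusted p = 0.015). It read 7.20, 7.17, 7.27 and 7.23 with TGF-beta against 7.46, 7.46, 7.35 and 7.27 with the inhibitor, so that the groups overlapped through 1 rigid array of each treatment. This call was lost with median scaling over the probes detected on every array, in the authors' value table, and without any 1 of 3 arrays (highest adjusted p 0.21). RefSeq places the hairpins of Mir181a-1 and Mir181b-1 at chr1:137966455-137966718 and those of Mir181a-2 and Mir181b-2 at chr2:38852735-38853918, both on the plus strand, so each copy of miR-181a has a copy of miR-181b close by. The mature sequences of miR-181c and miR-181d both lie on the minus strand of chromosome 8, yet their probes moved in opposite directions. Under quantile normalization the other strands of the miR-181a hairpins did not pass the test: miR-181a-1* differed by -0.02 (SE 0.05) and miR-181a-2* by 0.13 (SE 0.05, adjusted p = 0.070 in limma). MiR-181a-2* did pass, as a rise, with median scaling over the probes detected on every array (adjusted p = 0.031) and in the authors' value table (0.017 in limma).

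Among the other rises, miR-22, a widely expressed miRNA that represses TET demethylases, read 11.34 and 11.30 in compliant and 11.38 and 11.48 in rigid culture with TGF-beta, against 11.02 and 10.88 and then 11.16 and 11.06 with the inhibitor. It rose by 0.34 (SE 0.06), or 1.27-fold, and its groups did not overlap. Its other strand, miR-22*, differed by 0.07 (SE 0.06, adjusted p = 0.49 in limma). MiR-350 rose by 0.22 (SE 0.05), with arrays at 8.39, 8.29, 8.43 and 8.27 against 8.17, 8.17, 8.10 and 8.08. MiR-181b, miR-181a, miR-181d, miR-22 and miR-350 were the 5 rises that kept their call under every alternative run.

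The remaining 7 rises were small, between 0.11 and 0.21, and each lost its call under some alternative. MiR-9, which represses E-cadherin in human breast cancer cells, rose by 0.17 (SE 0.05), with arrays at 7.54, 7.49, 7.28 and 7.29 against 7.48, 7.28, 7.16 and 7.0, so that the groups overlapped. MiR-33, encoded within an intron of Srebf2 and known to repress the cholesterol exporter ABCA1, rose by 0.16 (SE 0.04). MiR-17* stood at the same rank, 7.63, on all 4 inhibitor arrays, and read 7.65, 7.75, 7.85 and 7.78 with TGF-beta, a rise of 0.13 (SE 0.03). Its main strand miR-17, a cell cycle promoting miRNA of the miR-17 cluster, differed by 0.01 (SE 0.06). MiR-673-3p (0.21), miR-551b (0.20), miR-199b* (0.12) and miR-878-3p (0.11) completed the rises. The other strand of miR-673-3p and of miR-878-3p was detected on none of the 8 arrays, and neither was the probe for miR-199a-3p and miR-199b. Without 1 array at a time the call was lost for 2 to 7 of the 8 arrays in each of these 7 miRNAs, with highest adjusted p between 0.093 for miR-17* and 0.66 for miR-673-3p over all alternatives.

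The falls were led by a pair of miRNAs that repress the cell cycle inhibitor p27. MiR-221 read 9.06 and 9.13 in compliant and 9.21 and 9.10 in rigid culture with TGF-beta, against 10.17 and 10.08 and then 10.17 and 9.96 with the inhibitor. It fell to 0.511 of its inhibitor level, a difference of -0.97 (SE 0.09). MiR-222 read 8.67, 8.74, 8.91 and 8.87 with TGF-beta against 9.77, 9.72, 9.79 and 9.65 with the inhibitor, a difference of -0.94 (SE 0.05, limma adjusted p = 4.2e-10). For both the highest TGF-beta array lay well below the lowest inhibitor array. Their hairpins lie together at chrX:19146294-19146971 on the minus strand, within 678 bases.

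MiR-193, miR-193b and miR-365 also fell together. MiR-193 read 10.25, 10.26, 10.45 and 10.61 with TGF-beta, compliant before rigid, against 11.30, 11.16, 11.40 and 11.38, a difference of -0.92 (SE 0.06). MiR-193b read 7.91, 8.10, 8.36 and 8.48 against 8.89, 8.73, 8.99 and 9.0, a difference of -0.69 (SE 0.07). MiR-193b and miR-365 are known in the mouse for promoting brown fat differentiation. MiR-365 read 8.25, 8.17, 8.42 and 8.47 against 8.83, 8.82, 9.0 and 9.02, a difference of -0.59 (SE 0.06). None of these groups overlapped. Mir193a and Mir365-2 lie within 14543 bases on chromosome 11 and Mir193b and Mir365-1 within 4404 bases on chromosome 16. Both Mir365 loci give the same mature sequence, so the miR-365 probe cannot tell them apart. The passenger strand miR-193* differed by -0.11 (SE 0.04, limma adjusted p = 0.11).

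MiR-210, the miRNA most directly induced by hypoxia, read 7.26, 7.43, 7.67 and 7.55 with TGF-beta, against 8.38, 8.41, 8.38 and 8.16 with the inhibitor. It fell to 0.553 of the inhibitor level, a difference of -0.85 (SE 0.09), and the groups lay well apart. MiR-31, reported to hold back metastasis of human breast cancer cells, read 10.63, 10.67, 10.94 and 11.06 against 11.43, 11.40, 11.43 and 11.40, a difference of -0.59 (SE 0.08). The inhibitor arrays of miR-31 were nearly level and the 2 rigid TGF-beta arrays lay between them and the compliant ones. Its other strand miR-31* (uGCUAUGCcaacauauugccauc, shown because both strands of the Mir31 hairpin on chromosome 4 fell) read 7.46, 7.51, 7.79 and 7.68 against 8.07, 8.04, 8.0 and 7.90, a difference of -0.39 (SE 0.04).

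In the miR-99, miR-100 and miR-125 families, 4 of 8 tested members fell and none rose (median -0.14, against 0.01 over all tested miRNAs, of which 7.67% fell). MiR-125b-5p, the mammalian counterpart of the worm timing miRNA lin-4, had 11.72 on both compliant and 12.11 and 12.24 on the rigid TGF-beta arrays, against 12.78 and 12.48 and then 12.71 on both rigid inhibitor arrays. Its difference was -0.72 (SE 0.06, limma adjusted p = 6.9e-07), with no overlap. MiR-125a-5p fell by 0.28 (SE 0.05), reading 10.65, 10.61, 10.67 and 10.56 against 10.81, 10.98, 10.91 and 10.91. MiR-100 fell by 0.23 (SE 0.04), with arrays at 7.73, 7.63, 7.77 and 7.65 against 7.98, 8.01, 7.91 and 7.82. The passenger strand miR-125b-3p fell by 0.17 (SE 0.04), and it lost its call in 2 other scalings and without any 1 of 4 arrays (highest adjusted p 0.14). The members that did not pass were miR-99a at -0.11 (adjusted p = 0.058 in limma), miR-125a-3p at -0.03, miR-99b at 0.00 and miR-125b* at 0.04. MiR-99a (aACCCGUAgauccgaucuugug) and miR-100 (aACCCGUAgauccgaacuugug), printed because 1 of this near-identical pair passed, differ by 1 base.

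The let-7 family, which represses RAS, HMGA2 and LIN28, had 3 falls among 9 tested members and no rise (median -0.21, with 8 of 9 below 0), beside 7.67% of all tested miRNAs that fell. The falls were 6 with median scaling over all probes, 5 in the authors' value table and 2 with slide as a block. The 3 members that fell differ from each other by 1 or 2 bases.
let-7a: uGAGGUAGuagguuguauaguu
let-7c: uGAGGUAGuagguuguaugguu
let-7e: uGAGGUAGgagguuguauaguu

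Let-7e fell by 0.29 (SE 0.05), with TGF-beta arrays at 9.90, 9.93, 9.83 and 9.83 against 10.28, 10.17, 10.10 and 10.10. Let-7a read 9.93, 9.98, 9.96 and 9.87 against 10.21, 10.15, 10.19 and 10.08, a difference of -0.22 (SE 0.06), and let-7c differed by -0.21 (SE 0.06). The groups did not overlap in any of the 3. Let-7f (-0.26) and miR-98 (-0.22, limma adjusted p = 0.054) did not pass, and let-7i, at 0.05, was the 1 member above 0. Let-7a lost its call with slide as a block and without any 1 of 4 arrays (highest adjusted p 0.087), and let-7c in 1 other scaling and without any 1 of 4 arrays (0.097).

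The clusters of miR-23, miR-27 and miR-24 are each transcribed as one unit, from chr8:84208518-84208921 and within 792 bases on chromosome 13. The arrays carry 1 probe for miR-23a and miR-23b and 1 for miR-27a and miR-27b, whose sequences (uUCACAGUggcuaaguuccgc and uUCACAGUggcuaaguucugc for miR-27a and miR-27b) differ by 1 base. Of 7 tested probes 2 fell and none rose, beside 7.67% of all tested miRNAs that fell. With median scaling over all probes 4 of the 7 fell, miR-24 and miR-24-2* in addition. The miR-23a and miR-23b probe read 11.27, 11.21, 11.27 and 11.30 with TGF-beta, against 11.66, 11.66, 11.66 and 11.58 with the inhibitor, a difference of -0.38 (SE 0.08). The miR-27a and miR-27b probe read 11.91, 11.91, 11.66 and 11.72 against 12.30, 12.11, 12.38 and 11.91, a difference of -0.37 (SE 0.09). Its groups met at 11.91, and its call was lost without the set 1 inhibitor array of either microenvironment or with the 67NR arrays fitted alone (highest adjusted p 0.083). MiR-24, with arrays at 10.12, 10.22, 10.26 and 10.21 against 10.53, 10.47, 10.51 and 10.30, differed by -0.25 without passing (limma adjusted p = 0.084), although its groups did not overlap. The passenger strands miR-27a* (0.16) and miR-27b* (0.15) differed in the other direction and did not pass.

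Other falls came from several families. In the miR-30 family 2 of 5 members fell, beside 7.67% of all tested miRNAs that fell. MiR-30d fell by 0.33 (SE 0.05) and miR-30a by 0.28 (SE 0.04). With median scaling over all probes 3 of the 5 fell. All 5 lay below 0 (median -0.22, the value of miR-30c). MiR-30c was detected on only 2 of the 8 arrays and miR-30b on 1, all with the inhibitor. MiR-30a read 7.04, 7.05, 7.16 and 7.09 with TGF-beta against 7.39, 7.40, 7.43 and 7.24 with the inhibitor. MiR-130a fell by 0.41 (SE 0.07), reading 8.85, 8.99, 9.02 and 9.04 against 9.42, 9.46, 9.49 and 9.19. The other 3 tested members of its family did not pass under quantile normalization. With median scaling over all probes miR-130b fell too (-0.20, limma adjusted p = 0.011). MiR-484 fell by 0.40 (SE 0.05), with arrays at 9.0, 9.05, 9.01 and 9.06 against 9.50, 9.43, 9.37 and 9.42. For miR-30a, miR-30d, miR-130a and miR-484 the groups did not overlap, and all 4 kept their call under every alternative run.

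Both members of the miR-26 family, repressors of the chromatin enzyme EZH2, fell, beside 7.67% of all tested miRNAs. MiR-26a fell by 0.21 (SE 0.06) and miR-26b by 0.17 (SE 0.05), and both overlapped between treatments. Neither passed with median scaling over the probes detected on every array. MiR-16, which represses BCL2 and cyclins, read 10.05, 10.03, 10.15 and 9.88 against 10.39, 10.45, 10.37 and 10.01, a fall of 0.28 (SE 0.09) with the same sign on 3 of 4 slides. It was the 1 of 5 members of the miR-15 and miR-16 family to pass, beside 7.67% of all tested miRNAs that fell. MiR-28 fell by 0.15 (SE 0.04) and miR-7a, which represses EGFR, by 0.13 (SE 0.04). These 5 lost their calls without any 1 of 3 (miR-28), 5 (miR-26b) or 6 (miR-26a, miR-16, miR-7a) of the 8 arrays, with highest adjusted p over all alternatives of 0.077 for miR-28, 0.16 for miR-26b, 0.15 for miR-26a, 0.22 for miR-16 and 0.17 for miR-7a. The rigid inhibitor array of set 2 gave the lowest inhibitor value for miR-26a, miR-26b, miR-16 and miR-7a.

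MiR-206, a muscle miRNA, fell by 0.25 (SE 0.04) and stood at 7.23, 7.23, 7.22 and 7.23 with TGF-beta, against 7.63, 7.55, 7.41 and 7.32 with the inhibitor. It and miR-208b were the 2 of 5 muscle marker probes detected, and miR-1, the miR-133a and miR-133b probe and miR-208a were detected on no 67NR array. Summed over the 5 muscle probes, the relative intensity was 557 to 625 with TGF-beta and 568 to 706 with the inhibitor. The part of muscle cells in this result was not tested.

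**Figure D2:**
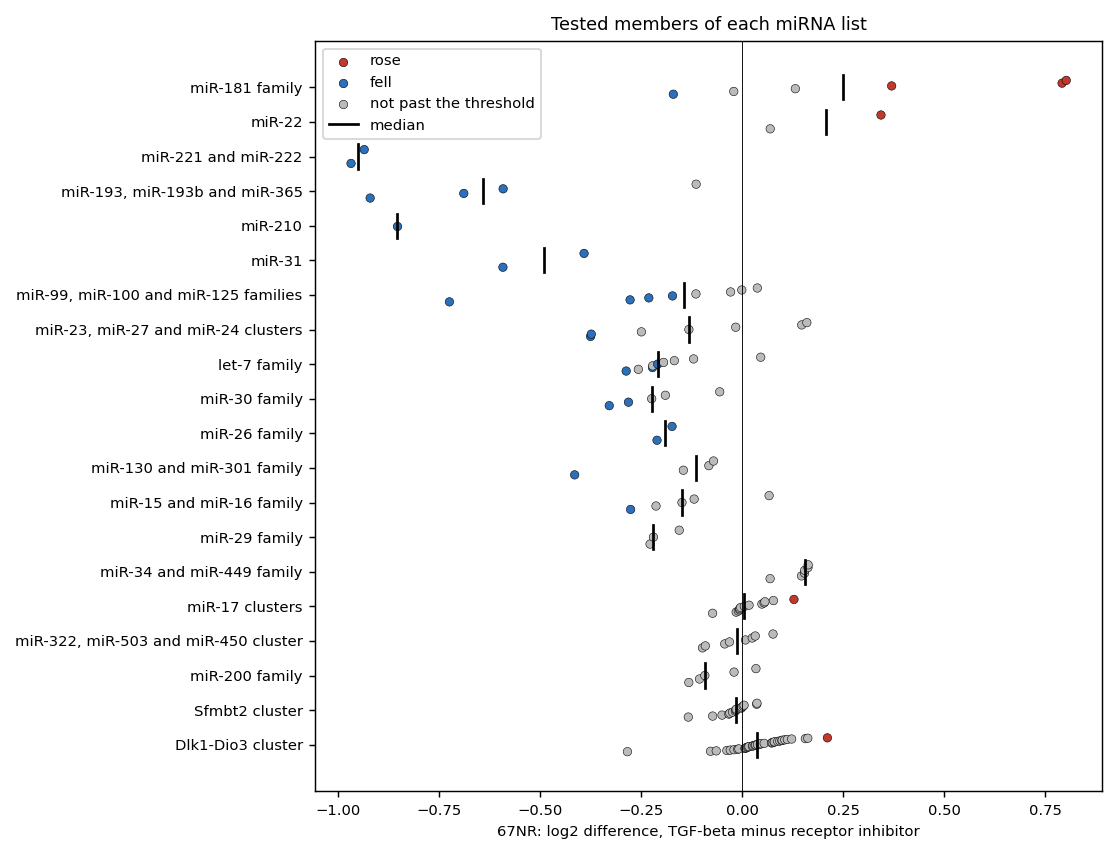
Points are the tested members of each miRNA list, placed by their log2 difference in 67NR (TGF-beta minus inhibitor, horizontal axis) and coloured by whether they rose, fell or did not pass, and bars mark medians. The miR-181 family spreads from -0.17 to 0.80, and the medians of the let-7, miR-30 and miR-29 families lie near -0.2.

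Further lists with known ties to TGF-beta held 1 call in 67NR under quantile normalization. None of the 5 miR-200 family members passed (-0.13 to 0.03), and of these only miR-141 was detected on all 8 arrays. No tested member of the miR-29 family, repressors of collagen genes, passed either, although all 3 lay between -0.23 and -0.16 (miR-29c with an adjusted p of 0.054 in limma). MiR-29c, also on the list of miRNAs reported as lowered, fell with median scaling over all probes (0.0077) and in the authors' value table (limma adjusted p = 0.048). Of 9 tested miRNAs reported as raised by TGF-beta none rose and 1 fell, the probe for miR-23a and miR-23b. Over all tested miRNAs 3.29% rose and 7.67% fell. With median scaling over the probes detected on every array 1 of the 9 rose, miR-143 (limma adjusted p = 0.037). The list of raised miRNAs leaves out the miR-181 family, which is also reported as induced by TGF-beta and had 3 rises here. Of 9 reported as lowered none passed under quantile normalization, but only 4 of the 9 were detected on all 8 arrays. MiR-200b, miR-200c, miR-429 and miR-205 were detected on none, so the arrays could not show whether these fell. MiR-21, an oncogenic miRNA whose processing Smads are reported to promote, read 13.13, 13.13, 13.40 and 13.27 with TGF-beta against 12.92, 12.92, 13.40 and 12.92, a difference of 0.19 (SE 0.08) that did not pass (limma adjusted p = 0.17). One rigid inhibitor array stood as high as the highest TGF-beta array. MiR-155, linked to inflammation, differed by 0.05 (SE 0.05), and the NF-kappa-B responsive miR-146a and miR-146b were detected on no 67NR array.

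Among the remaining lists, all 6 tested members of the miR-34 and miR-449 family, known as p53 targets and for their part in cilia formation, lay above 0 (median 0.15) and none passed, though miR-34c did in the authors' value table (limma adjusted p = 0.044). Neither did any of 8 tested members of the cluster of miR-322, miR-503 and miR-450, of 3 in the miR-183 cluster, or of 15 in the Sfmbt2 cluster. In the imprinted Dlk1-Dio3 cluster 1 of 36 passed, miR-673-3p, against 4 of 34 in the authors' value table without it, and in the miR-17 clusters 1 of 13, miR-17*. Of the mesenchymal miRNAs 1 of 6 passed, miR-199b*, while miR-143, miR-145, miR-199a-5p, miR-214 and miR-10b lay between -0.07 and 0.09. The calls of miR-673-3p, miR-17* and miR-199b* were rises, beside 3.29% of all tested miRNAs that rose. Just outside the threshold came miR-296-5p (0.36, adjusted p = 0.051 in limma), miR-453 (0.15, 0.051) and miR-98 (-0.22, 0.054). MiR-296-5p read 12.55 on 1 compliant and 12.48 on the other 3 TGF-beta arrays, against 12.01, 12.30, 12.01 and 12.24 with the inhibitor, and its SE of 0.11 was among the larger ones of the named miRNAs.

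Called miRNAs were matched by name with other tested strands of the same miRNA, in 17 pairings. These include miR-125b-3p with miR-125b*, which are both passenger strands rather than opposite strands of a hairpin. Of the 17, 12 had the same sign. Over all tested miRNAs 206 differences lay above 0 and 158 below. In 4 of the 17 the partner passed in the same direction, each time as a fall, beside 7.67% of all tested miRNAs that fell. Those 4 pairings, also among the 12, are miR-31 with miR-31* and miR-125b-5p with miR-125b-3p, each counted from both sides. In 10 further pairings the other strand was not tested.

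Each of 4 slides carried 1 TGF-beta and 1 inhibitor array of 67NR, which allows a difference within each slide. On 2 slides the pair shared its microenvironment, and on the other 2 it did not. Of the 40 called miRNAs 33 had the same sign on all 4 slides, 10 of the 12 rises and 23 of the 28 falls. Over all tested miRNAs 29% had the same sign on all 4, 14.8% higher and 14.2% lower with TGF-beta. For miR-222 the 4 within-slide differences were -1.09 and -0.92 on the slides with matched microenvironments and -0.92 and -0.81 on the others, and for miR-193 they were -1.05 and -0.80, then -1.11 and -0.72. MiR-181b gave 0.71 and 0.74 on the matched slides. On the slide that paired compliant TGF-beta with a rigid inhibitor array it gave 1.14, and on the one that paired rigid TGF-beta with a compliant inhibitor array 0.61. The 7 with another sign or 0 on 1 slide were miR-551b, miR-9, miR-7a, miR-26a, miR-26b, miR-16 and the miR-27a and miR-27b probe. With slide as a fixed block 33 of the 40 calls remained, and with slide as a random block (estimated correlation -0.01) all 40 did.

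The question of whether the microenvironment alters the response was asked by fitting the TGF-beta difference in each and the difference between them. In compliant culture 31 of the tested miRNAs passed (8.49%), 8 higher (2.19%) and 23 lower (6.3%), and in rigid culture 18 did (4.93%), 6 higher (1.64%) and 12 lower (3.29%). With slide as a block these counts were 18 and 10, and with array weights 28 passed in rigid culture. Without the compliant TGF-beta array of set 1, 20 passed in compliant culture, and without the set 1 array of either treatment in rigid culture 11 passed there. All 40 called miRNAs had the same sign in both microenvironments. The call rests on the mean of these differences, so the shared sign is no separate support. Of the 40, 26 also passed in the compliant comparison and 18 in the rigid one, counting in each the 16 that passed in both. For the difference itself no miRNA passed an adjusted p under 0.05 in limma (0%), 28 had an unadjusted p under 0.05, and the smallest adjusted p was 0.25. A lower count in rigid culture therefore does not show a weaker response there.

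The smallest p for this difference belonged to miR-31*, which differed by -0.57 (SE 0.06) in compliant and by -0.21 in rigid culture, 0.36 apart (SE 0.08, 95% interval 0.18 to 0.54 before any adjustment for the number of miRNAs, limma adjusted p = 0.25). Next came miR-301b, -0.20 in compliant and 0.03 in rigid, and miR-377, 0.08 and -0.21, which was detected on 0 of 4 TGF-beta and 2 of 4 inhibitor arrays (limma adjusted p = 0.47 each). MiR-125b-5p differed by -0.91 in compliant and -0.54 in rigid culture, and miR-210 by -1.05 and -0.66, with adjusted p of 0.47 and 0.63 for the gap in limma. For miR-181b the gap of 0.04 had an interval of -0.13 to 0.21, and for miR-221 the gap of 0.12 one of -0.26 to 0.50. Of the 28 falls 23 were numerically smaller in rigid culture (median -0.26, against -0.37 in compliant), while 55.1% of all tested miRNAs had a rigid minus compliant difference above 0. That count was 20 to 27 of 28 (of 27 in the authors' value table, 23) over the alternatives and arrays left out.

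**Figure D3:**
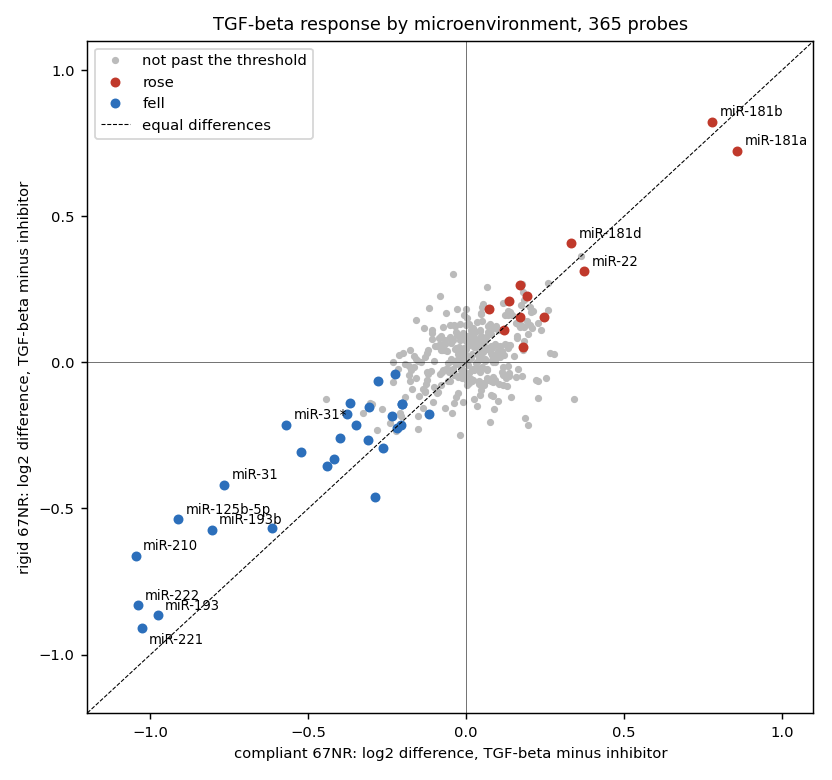
Each point is a tested miRNA, placed by its log2 difference (TGF-beta minus inhibitor) in compliant (horizontal) and rigid (vertical) 67NR cultures, with those that rose or fell over both coloured and a dashed line where the 2 are equal. MiR-181a and miR-181b sit near the line at the upper right, and miR-210, miR-125b-5p, miR-31 and miR-31* sit above it at the lower left.

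The same comparison in the sister lines shows where 67NR differed. Per the labels 4TO7 is systemically invasive and 4T1 highly metastatic, and each has 8 arrays in the same 4 kinds of group. TGF-beta changed 40 miRNAs in 67NR (11%), 78 in 4TO7 (21.4%) and 116 in 4T1 (31.8%). These counts were not tested against each other, and 35 of the tested miRNAs were detected on no 67NR array. A lower count in 67NR therefore does not show a weaker response there. In 4TO7 9.59% rose and 11.8% fell, and in 4T1 12.6% rose and 19.2% fell. Of the 40, 22 also passed in the same direction in 4TO7, 26 in 4T1 and 19 in both. In the opposite direction 1 passed in 4TO7, miR-16, and 2 in 4T1, miR-350 and miR-9. The difference of the response passed for 42 miRNAs against 4TO7 (11.5%), 15 higher in 67NR (4.11%) and 27 lower (7.4%), and for 25 against 4T1 (6.85%), 10 higher (2.74%) and 15 lower (4.11%). Of these, 13 differed from both lines in the same direction. Of the 13, 4 still did so with slide as a block, miR-9, miR-34a, miR-146a and miR-149, and 6 to 11 without 1 array of 67NR. In all these differences the same 8 arrays of 67NR enter, so the counts against 4TO7 and against 4T1 are not independent.

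MiR-22 rose less in 67NR than in the sister lines, by 0.34 against 0.62 in 4TO7 and 1.26 in 4T1. Its difference from 4T1 was -0.91 (SE 0.08, limma adjusted p = 5.5e-07), and it stayed past the threshold under each scaling, with slide as a block and without any 1 array of 67NR. That from 4TO7 was -0.28 (adjusted p = 0.037), which did not pass in the other 3 scalings, with slide as a block, or without any 1 of 5 arrays (highest adjusted p 0.086 among those arrays). MiR-34a, a p53 target, did not pass in 67NR (0.07, SE 0.05) but rose by 0.36 in 4TO7 and 0.63 in 4T1, with differences of -0.30 (adjusted p = 0.015) and -0.56 (5.1e-05) in limma. Let-7i likewise read 0.05 in 67NR against 0.33 in 4TO7 and 0.76 in 4T1. Its difference from 4T1 was -0.72 (adjusted p = 2.3e-05), and the one from 4TO7, -0.28 (0.045), was lost with slide as a block, in 1 other scaling and without any 1 of 6 arrays (highest adjusted p 0.12 in limma).

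In 67NR the rise of miR-9, 0.17, lost its call under some alternatives, as given above. MiR-9 had the opposite sign in the sister lines, at -0.11 in 4TO7, which did not pass there, and -0.24 in 4T1. The differences were 0.28 (adjusted p = 0.012) and 0.41 (0.00061) in limma, and both held without any 1 array of 67NR and with slide as a block. MiR-350 was 0.22 in 67NR and 0.26 in 4TO7 but -0.16 in 4T1, a difference from 4T1 of 0.38 (limma adjusted p = 0.0012) that did not pass with slide as a block (0.28, adjusted p = 0.12). MiR-16 was -0.28 in 67NR and -0.42 in 4T1, against 0.41 in 4TO7, a difference from 4TO7 of -0.69 (adjusted p = 0.0016 in limma).

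The miR-23a and miR-23b probe and the miR-27a and miR-27b probe fell in 67NR and passed in neither sister line, while of the same clusters miR-24-2* fell by 0.28 in 4TO7 (-0.13 in 67NR, which did not pass). The miR-23a and miR-23b probe gave -0.38 in 67NR, 0.00 in 4TO7 and 0.09 in 4T1, with differences of -0.38 (limma adjusted p = 0.047) and -0.47 (0.021). Without any 1 of the 8 67NR arrays the first did not pass (highest adjusted p 0.10), and with slide as a block neither did (0.087 and 0.13 in limma). The miR-27a and miR-27b probe gave -0.37, 0.15 and 0.16 in 67NR, 4TO7 and 4T1, and differences of -0.53 from each (adjusted p = 0.019 and 0.021 in limma). With slide as a block these were 0.022 and 0.059, and the first was lost without the compliant inhibitor array of set 1 (adjusted p = 0.052), the second without that array or the rigid TGF-beta array of set 1 (highest 0.060).

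MiR-125b-5p fell further in 67NR, by 0.72 on the log2 scale against 0.29 in 4TO7 and 0.39 in 4T1. The difference from 4TO7 was -0.44 (limma adjusted p = 0.0055). That from 4T1 was -0.34 (0.033) and did not pass with slide as a block (-0.23, adjusted p = 0.37) or without any 1 of 6 arrays (highest 0.093). MiR-31 fell by 0.59 in 67NR, and read -0.07 in 4TO7 and -0.28 in 4T1, with a difference from 4TO7 of -0.52 (adjusted p = 0.0073) and from 4T1 of -0.32 (0.10) in limma. MiR-99a gave -0.11 in 67NR, -0.40 in 4TO7 and -0.32 in 4T1, with differences of 0.29 (adjusted p = 0.0019) and 0.21 (0.024) in limma. MiR-324-5p gave -0.05, -0.28 and -0.19 in the same order, with differences of 0.23 (0.0012) and 0.14 (0.047 in limma). For both, the difference from 4T1 did not pass in 2 other scalings, with slide as a block (adjusted p = 0.28 and 0.27), or without any 1 of 4 and 6 arrays. MiR-140, miR-140* and miR-503 differed from 4TO7, reading -0.02, -0.02 and -0.03 in 67NR against 0.40, 0.52 and -0.43 in 4TO7, with limma adjusted p of 0.00086, 8.1e-05 and 0.0016. MiR-706 differed from 4T1, with 0.05 in 67NR against -0.34 (adjusted p = 0.00061 in limma).

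Some differences between lines rest on probes near background. MiR-146a and miR-450a-5p, both among the 13, were detected on no 67NR array, and miR-149 was detected on 0 of 4 TGF-beta and 1 of 4 inhibitor arrays of 67NR. MiR-206, also among the 13, was detected on no array of 4TO7 or 4T1. MiR-132 was not detected on any of the 4 TGF-beta arrays of 67NR and was detected on all 4 inhibitor arrays. Its mean reading was only 1.07-fold higher with the inhibitor, and it did not pass in 67NR. MiR-155, with the smallest p against 4TO7, was detected on all 8 arrays of 67NR, where it differed by 0.05. It was detected on none of the 4 inhibitor arrays of 4TO7, where its mean reading was 2.22-fold higher with TGF-beta. These ratios set the mean of the bright group against the dim probe's own values, or the lowest detected signal where that was higher. They make no allowance for the spread between arrays, so they are not sure minimum changes.

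The rises of miR-181b and miR-181a did not differ past the threshold between 67NR and either sister line. MiR-181b rose by 0.80 in 67NR, 0.98 in 4TO7 and 0.97 in 4T1, with differences at a limma adjusted p of 0.057 and 0.075. MiR-181a gave 0.79, 0.90 and 0.95, with adjusted p of 0.24 and 0.086 in limma, which does not show that the lines respond alike. MiR-222 fell by 0.94 in 67NR, 1.17 in 4TO7 and 1.11 in 4T1. Its difference from 4TO7, 0.23, passed narrowly (limma adjusted p = 0.040) and did not pass with slide as a block or without any 1 of 7 arrays. MiR-193 and miR-210 fell further in 67NR (-0.92 and -0.85) than in 4TO7 (-0.59 and -0.43), with differences of -0.33 and -0.42 (adjusted p = 0.029 and 0.040 in limma). These 2 were lost without any 1 of 4 and 6 arrays (highest adjusted p 0.070 and 0.10). In 4T1 they gave -0.98 and -1.23, and neither differed from 67NR past the threshold.

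**Figure D4:**
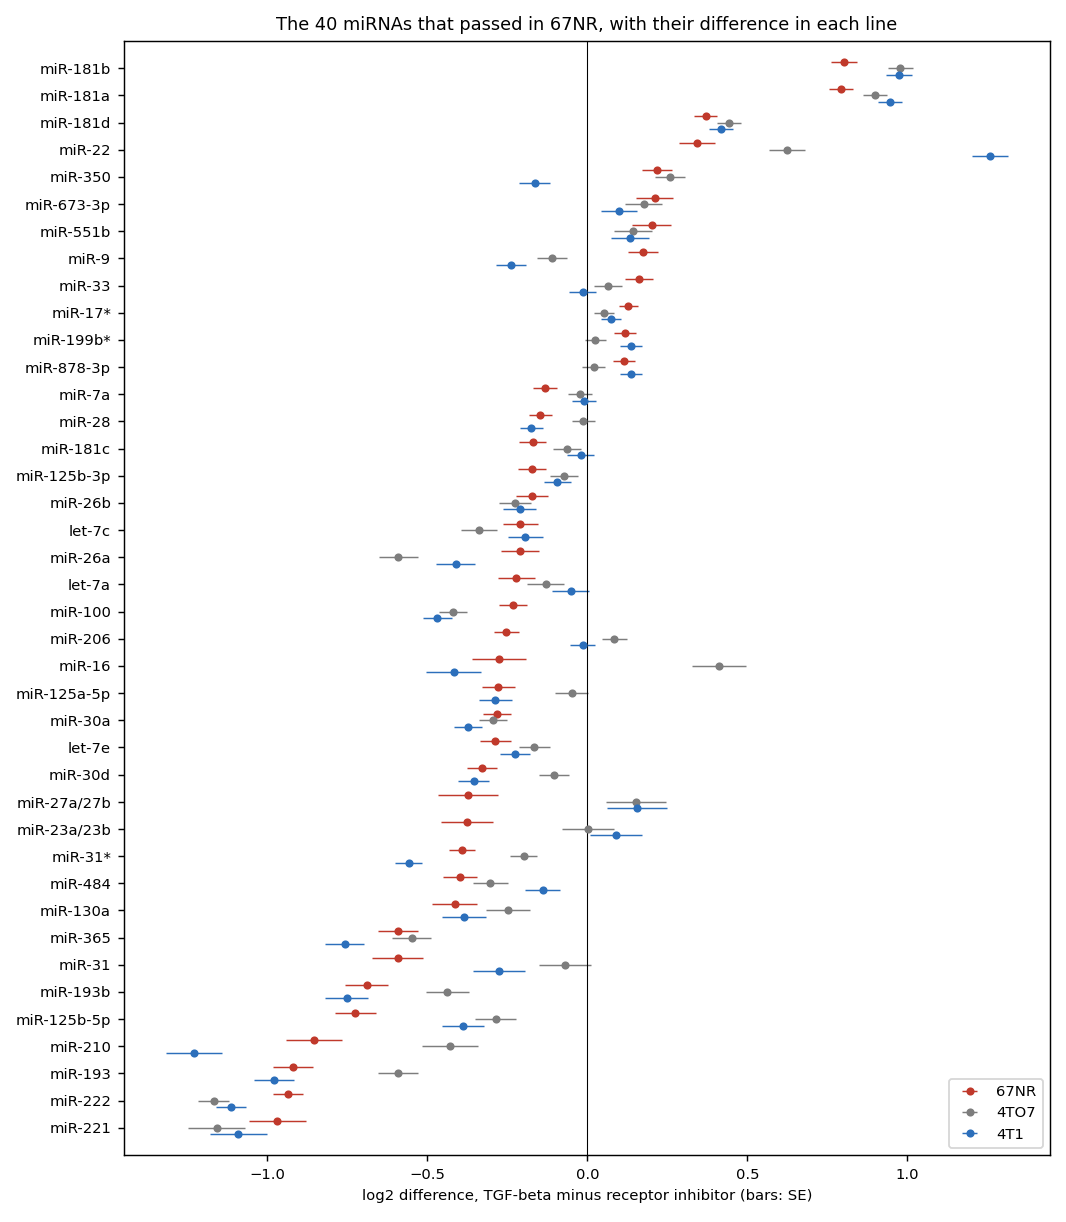
Points give the log2 difference (TGF-beta minus inhibitor, horizontal axis, bars for the SE) of the 40 miRNAs that passed in 67NR, with the same miRNAs in 4TO7 and 4T1. MiR-22 runs 0.34, 0.62 and 1.26 over 67NR, 4TO7 and 4T1, and the miR-27a and miR-27b probe runs -0.37, 0.15 and 0.16.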

How the data were processed

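MicroRNA from 24 samples was hybridised with a synthetic reference to 2-dye arrays. Per the file headers and the notes deposited with them, the intensity of a probe is a relative intensity (sample dye DY649 over reference dye DY547) on the linear scale, background-subtracted and corrected for labelling, with a detection p-value, an error and a fail code, and no scaling between arrays. The authors' deposited value table of 338 probes holds log2 values, equal to log2 of that intensity plus a constant per array (-0.287 to 0.236, largest deviation 5.87e-06). The scanner, software and genome build are not given in the sources used here.

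Log2 intensities of 558 mouse miRNA probes were quantile normalized (limma 3.58.1, R 4.3.3). Probes detected (p under 0.05) on both arrays of at least 1 of 12 groups, with a fail code on fewer than 12 arrays, were tested, 365 in all. Group means of all 24 arrays were fitted with lmFit and eBayes with a variance trend (12 residual degrees of freedom), with two-sided tests and the Benjamini-Hochberg adjustment over those 365. The code was tested on simulated data. Median spike-in log2 intensity was 11.9 to 12.0 and median percent error 6.18 to 9.06 on the 67NR arrays.

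The miRNAs named were those past the threshold with the same direction in both sets, the 3 smallest p beyond it, the smallest p of each difference, and members of lists. Members, lists and rules were chosen with earlier results of these data known. Of the lists for other cell types, 1 of 6 blood probes (miR-451), 0 of 2 endothelial, 1 of 5 neural and liver (miR-122) and 8 of 17 embryonic stem cell probes were detected on 67NR arrays, and none of these changed. Alternatives were other scalings, filters, blocks, weights and leaving out each array. Sequences and positions came from RefSeq (GRCm38.p6).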

Additional observations from a re-analysis of the deposited data

Results flagged for a closer look

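In 5 of 80 sets of 4 arrays looked at (the 40 called miRNAs under each treatment) 1 array was flagged as apart from the other 3. For independent values of 1 group, chance gives about 1 in 20. The 80 sets share arrays and mix compliant with rigid culture, so that rate need not hold here. All 5 were inhibitor sets and in each the low array was the rigid one of set 2. The gap to the nearest array as a share of the whole range was 1 for let-7c (10.47, with the others at 10.61) and 1 for the miR-23a and miR-23b probe (11.58, with the others at 11.66). There the other 3 arrays stood at the same rank, so the share is 1 however small the gap. The share was 0.896 for miR-210 (8.16, with the others at 8.38 to 8.41), 0.871 for miR-26a (8.88, with the others at 9.05 to 9.08) and 0.836 for miR-16 (10.01, with the others at 10.37 to 10.45). Without that array 36 of the 40 calls remained and 47 miRNAs passed.

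The response of 67NR differed from that of 4TO7 past the adjusted threshold in limma, with the miRNA detected under each treatment in both lines, for 20 of the named miRNAs. The log2 differences, 67NR minus 4TO7, were miR-22 (-0.28), miR-9 (0.28), miR-222 (0.23), miR-210 (-0.42), miR-193 (-0.33), miR-125b-5p (-0.44), miR-31 (-0.52), miR-31* (-0.19), miR-23a and miR-23b (-0.38), miR-26a (0.38), miR-16 (-0.69), miR-30d (-0.22), miR-27a and miR-27b (-0.53), miR-140* (-0.54), miR-140 (-0.42), miR-324-5p (0.23), miR-503 (0.40), miR-99a (0.29), miR-34a (-0.30) and let-7i (-0.28). From 4T1 it differed for 12, with log2 differences of miR-22 (-0.91), miR-350 (0.38), miR-9 (0.41), miR-125b-5p (-0.34), miR-23a and miR-23b (-0.47), miR-100 (0.24), miR-27a and miR-27b (-0.53), let-7i (-0.72), miR-34a (-0.56), miR-706 (0.38), miR-324-5p (0.14) and miR-99a (0.21). Of these, the differences from 4TO7 of miR-22, miR-222, miR-210, miR-193, miR-31*, the miR-23 and miR-27 probes, miR-30d and let-7i, and those from 4T1 of miR-125b-5p, miR-100, the miR-27 probe, miR-324-5p and miR-99a, were lost when some 1 array of 67NR was left out, with highest adjusted p between 0.052 and 0.12.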

How the results depend on the processing

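Of the 40 calls, 23 held under every alternative run and under each array left out, and none reversed. Calls kept were 33 with median scaling over all probes, 30 with median scaling over the probes detected on every array, 34 of 39 in the authors' value table, 35 without the detection filter, 33 with slide as a fixed block and 27 with the 67NR arrays fitted alone. All 40 remained with probes detected in 67NR, slide as a random block, array weights, and no variance trend. The count of rises was 5 with median scaling over all probes. With the authors' deposited values 61 miRNAs changed, 35 higher. With array weights 63 changed, 24 higher, and 28 in rigid culture. With slide as a fixed block 18 passed in compliant and 10 in rigid culture, 27 differed from 4TO7 and 14 from 4T1. Same-numbered sets deviated together by r = 0.263 and 0.282 in 67NR and 0.342 and 0.281 in 4T1 (compliant and rigid), but by -0.156 and 0.239 in 4TO7, so the set numbers are not taken to pair the samples. With the replicate block 70 changed, 30 higher, and all 40 calls remained. Leaving out 1 array of 67NR gave 28 to 47 changed, 7 to 14 higher and 19 to 36 lower, 20 to 32 in compliant and 11 to 17 in rigid culture, 26 to 33 different from 4TO7 and 19 to 26 from 4T1. The total count moved furthest without the rigid inhibitor array of set 1. The count of rises did so without the set 1 TGF-beta array of either microenvironment. Counts in compliant culture and against 4TO7 moved furthest without the compliant TGF-beta array of set 1. The count in rigid culture did so without the set 1 array of either treatment there. The cause was not tested. Signal over background limits 35 of the tested miRNAs, detected on no 67NR array. A leave-out leaves 1 array in a group, which is assumed to vary like the others. The difference between microenvironments had no call under any alternative (10 to 39 at an unadjusted p under 0.05 in limma).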
